A study of Mus musculus with 46 samples.

Results

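The levels of 40 mitosis and spindle genes were followed in mouse liver and in liver tumours driven by Myc. The genes were chosen by their known function in mitosis, and the rows carrying their symbols were taken from a table of 21671 genes. All 40 symbols were present, and all 40 passed the filter on low values. They encode 6 B cyclins and mitotic kinases, 4 spindle checkpoint proteins and 4 proteins that control the start of anaphase. The others are 6 centromere and kinetochore proteins, 4 subunits of the chromosomal passenger complex, 7 motors and microtubule proteins, 3 cytokinesis proteins and 6 proteins of chromosome structure.

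RNA-seq had been made from 46 libraries of FVB mice in 4 groups. The 11 control livers are given only as control or normal liver, and whether they carried a transgene is not stated. The 16 Myc tumours came from tet-Myc/LAPtTA mice, in which a tetracycline-controlled transactivator with liver-specific expression switched on the Myc transgene before birth. The 8 Myc-off tumours had the same genotype, and doxycycline in the food had kept the transgene off for 16 h. The 11 MycVD tumours came from tet-MycVD/LAPtTA mice, whose transgene encodes Myc with the V394D substitution. This mutant Myc binds the transcription factor Miz1 poorly, as is known from other work. The ages of the mice are not given. Tumours with the same ID in their title were taken to come from 1 animal and were averaged, which left 11 control, 7 Myc, 3 Myc-off and 10 MycVD IDs. Nothing in the labels says that IDs are separate animals, so p-values measure the spread between IDs.

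In mitosis, Cdk1 bound to B cyclins drives chromosome condensation and spindle assembly. The spindle checkpoint then holds back the anaphase-promoting complex until every kinetochore is attached to microtubules, after which separase cuts the cohesin that joins sister chromatids. Most of these genes are transcribed late in the cell cycle, by complexes of B-Myb, MuvB and Foxm1 that act through CCAAT boxes and cell cycle homology regions (CHR). Adult hepatocytes rarely divide, so the transcripts are scarce in healthy liver and abundant in growing liver and in tumours.

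Levels are exonic RPKM values (eRPKM), reads per kilobase of exon scaled by library depth, which allows a rough comparison between genes. Abundant genes seemed to meet a ceiling of reads per kilobase, inferred from the values, so their levels may be understated. The libraries held 3.25 to 12.6 M reads in the genes of the table. A value of a member rested on a median of 29 reads in control livers, where 63 of 440 values were under 10 reads and 2 were at 0. In every tumour library a member had at least 16 reads. The row of the Myc gene itself did not separate the groups: its ID means were 1.46 to 18.2 eRPKM in control livers. Myc IDs had 6.27 to 10.8, Myc-off IDs 4.16 to 9.11 and MycVD IDs 2.67 to 9.86, all within the control range. The labels do not give the species of the transgene, so this row does not check them. Hepatocyte markers were found in every library, and Gapdh was under 30 eRPKM in 8 libraries (1 control, 5 Myc and 2 MycVD). Myc-off IDs carry higher numbers than all others, and MycVD IDs carry higher numbers than Myc IDs. Date or batch effects and the effects of switch-off or substitution therefore cannot be told apart.

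The members share promoter motifs that their choice did not use. RefSeq promoter windows of 300 bases, 250 before and 50 after the start (build GRCm38.p6), were found for 35 of the 40 genes, as 37 windows. Windows for Aurkb, Incenp, Kif20a, Smc4 and Tpx2 were not used here. Matches were counted on both strands, and overlapping matches each counted. The CCAAT box (letters CCAAT) was found in 78.4% of the members' windows and in 37.4% of all 32851 windows of the table. A CHR (letters TTTGAA or TTCGAA) was found in 78.4% and 19.2%, and both motifs together in 70.3% and 7.52%. The E-box bound by Myc (letters CACGTG) was found in 8.11% and 7.15%. E2F motifs (letters TTTCCCGC, TTTGGCGC, TTTCGCGC or TTTGCCGC) were found in 5.41% and 2.26%. In 124 windows of 104 other mitosis genes, the CCAAT box was found in 53.2%, a CHR in 39.5% and both in 25.0%. A match describes the letters of the window and shows no binding.

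Stretches of 250 bases before the start are given for 5 members, chosen because the results below turn on them. Ccnb1 had the largest rise in Myc tumours on the log2 scale used below, and Cdk1 is its partner. Espl1 had the deepest fall after switch-off, Mki67 did not pass the test of that fall, and Ube2c went its own way in a single ID. Capitals mark CCAAT boxes (CCAAT, or ATTGG on the other strand) and CHR motifs (TTTGAA or TTCGAA, or TTCAAA on the other strand). The stretches lie at chr13:100786487-100786736 (Ccnb1, minus strand), chr10:69352913-69353162 (Cdk1, minus strand), chr15:102296043-102296292 (Espl1, plus strand), chr7:135716380-135716629 (Mki67, minus strand) and chr2:164769679-164769928 (Ube2c, plus strand).
Ccnb1: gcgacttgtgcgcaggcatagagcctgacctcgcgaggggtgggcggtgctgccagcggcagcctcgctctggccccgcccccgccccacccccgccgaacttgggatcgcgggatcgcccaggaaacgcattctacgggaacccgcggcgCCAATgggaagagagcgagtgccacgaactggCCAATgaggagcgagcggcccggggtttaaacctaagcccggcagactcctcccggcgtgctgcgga
Cdk1: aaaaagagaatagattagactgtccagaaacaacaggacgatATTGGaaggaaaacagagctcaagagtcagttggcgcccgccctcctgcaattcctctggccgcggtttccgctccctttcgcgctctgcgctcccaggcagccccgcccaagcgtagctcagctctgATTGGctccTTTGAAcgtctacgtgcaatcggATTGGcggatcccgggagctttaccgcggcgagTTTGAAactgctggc
Espl1: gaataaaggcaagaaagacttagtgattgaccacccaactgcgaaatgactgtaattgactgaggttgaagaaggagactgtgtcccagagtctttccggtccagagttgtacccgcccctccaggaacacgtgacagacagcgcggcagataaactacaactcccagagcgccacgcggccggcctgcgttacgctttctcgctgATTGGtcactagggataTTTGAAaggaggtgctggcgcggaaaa
Mki67: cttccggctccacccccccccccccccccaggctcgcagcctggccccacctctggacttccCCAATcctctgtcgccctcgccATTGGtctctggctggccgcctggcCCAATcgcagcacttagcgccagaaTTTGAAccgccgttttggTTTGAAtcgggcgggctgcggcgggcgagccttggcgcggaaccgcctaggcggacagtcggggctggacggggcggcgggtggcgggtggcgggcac
Ube2c: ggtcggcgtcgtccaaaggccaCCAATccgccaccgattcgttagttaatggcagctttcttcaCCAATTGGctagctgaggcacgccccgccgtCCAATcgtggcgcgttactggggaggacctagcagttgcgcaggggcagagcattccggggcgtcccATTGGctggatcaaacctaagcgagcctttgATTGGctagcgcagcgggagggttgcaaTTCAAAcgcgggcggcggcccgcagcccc
Ccnb1 holds 2 CCAAT boxes, which begin 99 and 67 bases before the start, and no CHR of these letters. Espl1 holds a CCAAT box at 44 and a CHR at 27 bases before the start, and an E-box that is not in capitals. Mki67 holds 3 CCAAT boxes and 2 CHR motifs, and Ube2c 6 CCAAT matches, of which a pair overlaps, and 1 CHR.

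The first comparison addressed the level of these genes in the established tumour. All 40 members rose in Myc tumours against control livers (limma on log2(eRPKM + 0.5), adjusted p under 0.05), where 50.4% of the 14566 genes tested were called higher. For all 40 the ID means of the groups did not overlap, as for 35.1% of all genes. The median member rose by 4.45 on the log2 scale, from 2.23 for Spc25 to 5.80 for Ccnb1, beside 0.28 over all genes. The 0.5 added to each value lowers the rises of scarce genes on this scale. As ratios of group means, Ccnb1 rose 70.8-fold and Bub1 142-fold, the largest such ratio. Group means of the members ran from 0.198 to 10.3 eRPKM in control livers and from 16.1 to 93.8 in Myc tumours. In bulk tissue, fewer cells of a type and less RNA per cell cannot be told apart. Over all genes 7334 were called higher and 4321 lower, a split that became 6019 and 5560 when libraries were scaled by median ratios, while the members stayed at 40 higher.

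**Figure D1:**
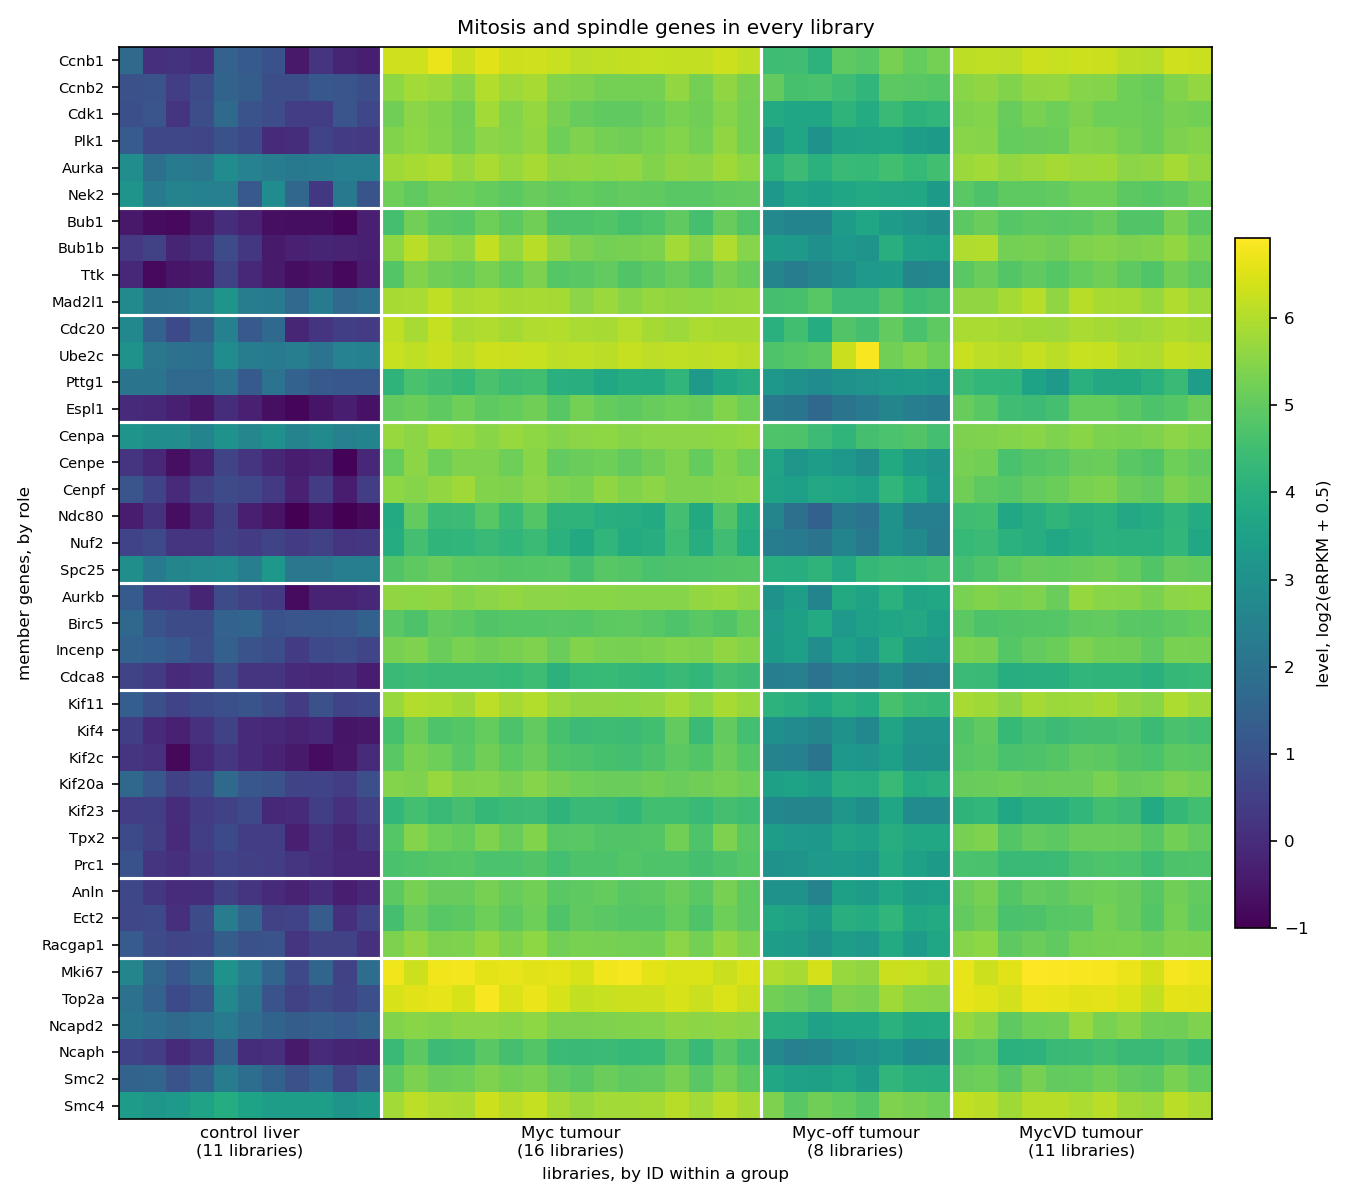
Heat map of log2(eRPKM + 0.5) for the 40 members (rows, white lines between roles) in the 46 libraries (columns, white lines between groups). Control livers form the dark block on the left, Myc and MycVD tumours are bright, and most values of the 8 Myc-off libraries lie between them, while Ube2c in the libraries of ID151964 is brighter than in the Myc IDs.

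B cyclins and mitotic kinases rose together. Ccnb1, cyclin B1, had 0.227, 0.621 and 2.81 eRPKM in control IDs (lowest, median and highest) and 70.0, 73.2 and 85.3 in Myc IDs. Its log2 difference was 5.80 ± 0.23 (SE, adjusted p = 1.6e-20). Every Myc ID stood far above the highest control ID, and the control IDs spread widely at these low counts. Cdk1, the kinase that cyclin B1 activates, had 0.670, 1.36 and 2.81 in control and 31.4, 37.6 and 47.0 in Myc IDs. Plk1, the polo-like kinase of mitotic entry and spindle poles, had 0.473, 1.08 and 1.96 against 37.2, 41.8 and 44.1. In both, the groups stood far apart and the Myc IDs lay close together. Aurka (Aurora A, a kinase of the spindle poles) and Nek2 (a kinase that separates centrosomes) started higher, at control medians of 4.57 and 4.37 eRPKM. They rose less, by 3.27 ± 0.09 and 3.01 ± 0.24 (SE).

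The spindle checkpoint held some of the scarcest control transcripts. Bub1, a checkpoint kinase at the kinetochore, had 0.0366, 0.128 and 0.530 eRPKM in control IDs and 25.6, 28.6 and 31.9 in Myc IDs. Bub1b, which encodes the checkpoint protein BubR1, had 0.236, 0.392 and 1.31 against 38.2, 48.0 and 59.5. Ttk, the kinase Mps1 that starts checkpoint signalling, had 0.0569, 0.238 and 0.932 against 29.1, 33.1 and 35.3. Their log2 differences were 5.39, 5.55 and 5.44, among the largest of the members. Mad2l1 encodes Mad2, which binds the activator Cdc20. It was at 2.73 to 8.15 in control livers and rose by 3.48.

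Of the genes that control the start of anaphase, Espl1 and Cdc20 rose most. Espl1, separase, had 0.0524, 0.292 and 0.535 eRPKM in control IDs and 31.8, 34.3 and 38.2 in Myc IDs, a log2 difference of 5.52 ± 0.12 (SE, adjusted p = 7.8e-27). Cdc20, which activates the anaphase-promoting complex, rose by 4.77 ± 0.26. Ube2c, the ubiquitin-conjugating enzyme of that complex, had 3.22, 4.55 and 7.66 against 66.9, 70.8 and 75.4. Pttg1, securin, which holds separase back, rose by 2.40, among the smallest rises, and had only 11.0 to 21.1 in Myc IDs. No control ID reached a Myc ID in any of these genes.

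Kinetochore genes differed widely in their control level. Cenpa, the histone variant that marks centromeres, had 4.99, 6.31 and 8.10 eRPKM in control IDs and 45.6, 46.5 and 51.0 in Myc IDs. Spc25, a subunit of the Ndc80 complex, had 3.89, 4.74 and 8.91 against 23.6, 27.6 and 30.1, the smallest log2 difference of all members. Its partners in that complex, Ndc80 and Nuf2, had control medians of 0.169 and 0.824 and rose by 4.70 and 3.68. Cenpe, a kinetochore motor, and Cenpf, a large kinetochore protein, rose by 5.38 and 5.09. So the subunits of a single complex had unlike levels in healthy liver and came close together in tumours, where Ndc80, Nuf2 and Spc25 had medians of 18.5, 18.1 and 27.6.

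The chromosomal passenger complex corrects faulty attachments. Its kinase Aurkb had 0.0894, 0.735 and 1.85 eRPKM in control IDs and 44.2, 46.1 and 50.3 in Myc IDs. Its other subunits Incenp, Cdca8 (borealin) and Birc5 (survivin) rose by 3.68 to 4.38 on the log2 scale. Their ID means in Myc tumours spanned 37.4 to 44.7, 19.2 to 21.1 and 27.5 to 32.4, so the IDs of that group differed little.

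Motors and cytokinesis genes rose by 4.10 to 5.08. The highest of them in tumours was Kif11, the motor that pushes spindle poles apart, with 0.799, 1.26 and 2.10 eRPKM in control IDs and 47.6, 52.6 and 61.1 in Myc IDs. Kif2c, which depolymerises microtubules at kinetochores, had the largest rise of this group (5.08 ± 0.14). Kif4, a chromosome motor, rose by 4.73, and Kif20a and Kif23, motors of the central spindle, by 4.29 and 4.10. Tpx2, which activates Aurora A on the spindle, rose by 4.71, and Prc1, which bundles midzone microtubules, by 4.44. The cytokinesis genes Anln (anillin, a scaffold of the contractile ring), Racgap1 (a protein of the spindle midzone) and Ect2 (its partner there) rose by 4.94, 4.65 and 4.10. Libraries were not stranded, so strand cannot assign reads in exons shared with a gene on the other strand. How such reads were counted is not known. In the GENCODE M21 annotation such exons hold 29.3% of Kif20a exon bases (with Cdc23), 22.8% of Ube2c (Tnnc2), 15.1% of Kif4 (Pdzd11) and 11.1% of Prc1 (Rccd1), and under 8% for every other member.

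Among the genes of chromosome structure, Mki67 (the antigen Ki-67, which coats mitotic chromosomes) had 0.969, 2.59 and 7.95 eRPKM in control IDs and 83.3, 92.8 and 109 in Myc IDs. Top2a, the topoisomerase that untangles sister chromatids, had 0.974, 1.56 and 5.94 against 73.4, 82.6 and 98.7. They were the members with the highest and next highest group mean in Myc tumours. The condensin genes Ncapd2, Ncaph, Smc2 and Smc4 rose by 3.76, 4.36, 3.67 and 2.49. Smc4 was the most abundant member in control livers, with 8.14, 10.1 and 14.3 eRPKM. Among control livers, ID128993 was highest in 21 members and ID125319 in 15, so the members varied together there. ID142606 was lowest in 15 members and ID141041 in 10. ID128993 was the deepest control library (8.95 M reads), and ID142606 and ID141041 were the shallowest (5.63 and 5.72 M). ID128988, the next deepest (8.35 M), was lowest in 4 members and highest in 0. The part of depth in this order was not tested.

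Some lists of cell type markers moved with this comparison, where 50.4% of all genes tested were called higher and 29.7% lower. Of 11 erythroid markers, 10 were called higher, and their summed level was 47.6 to 86.8 eRPKM in control libraries and 74.1 to 445 in Myc libraries. All 9 markers of neutrophils and myeloid progenitors were called higher, with sums of 8.43 to 22.7 and 49.1 to 324, and Ctsg was at 0 in all control livers. All 12 hepatocyte markers were called lower, with sums of 1324 to 2356 and 811 to 1377. Of 12 endothelial markers 7 were called lower and 1 higher, with sums of 216 to 410 and 119 to 202. Of 10 Kupffer cell and macrophage markers, 5 were called higher and 2 lower, and of 10 tested lymphocyte markers 3 and 1. Of 10 markers of stellate cells and fibroblasts, 4 were called higher and 3 lower, and of 7 tested cholangiocyte markers 1 and 2. The part of these cells in the result was not tested.

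The second comparison addressed the effect of 16 h without the transgene. Of the 40 members, 39 fell in Myc-off against Myc tumours, where 28% of all genes tested were called lower, and Mki67 did not pass the test. For 39 members the ID means did not overlap, as for 25.9% of all genes, and Ube2c was the member whose groups overlapped. The median member fell by 1.45 on the log2 scale, beside a median of 0.00 over all genes. Measured as the ratio of group means, a median of 35.7% of the Myc level was left, from 11.8% for Espl1 to 76.1% for Ube2c. In 8 members under 25% was left, and in 6 members 50% or more. The fits rest on 3 Myc-off IDs. With depth as a covariate 4 of the 39 (Cdc20, Ube2c, Pttg1 and Top2a) did not pass. In 29 members ID150584 was the lowest of them, and in 33 members ID153344 was the highest.

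**Figure D2:**
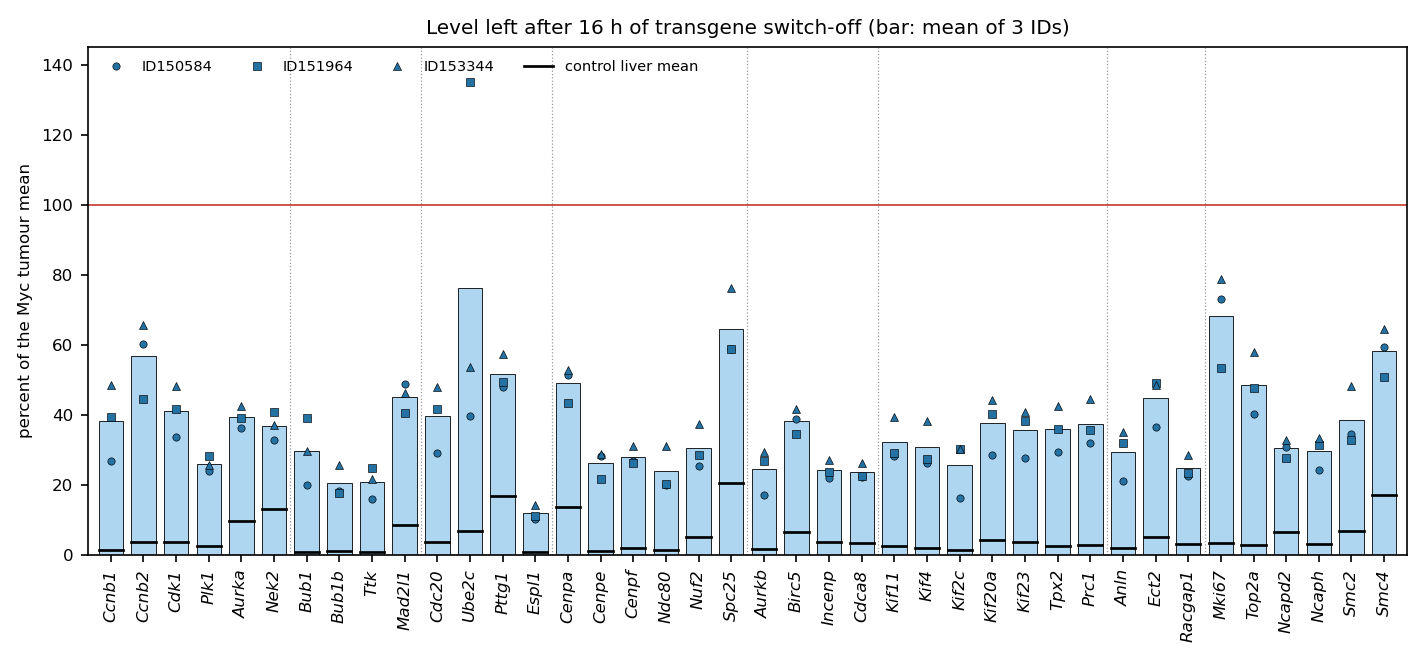
Mean of the 3 Myc-off IDs as percent of the Myc tumour mean for each member (bars, dotted lines between roles), with each ID as a point and the control mean as a black line. Espl1 has the shortest bar at 11.8%, every bar lies above its control line, and the square of ID151964 lies above the 100% line for Ube2c alone.

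The deepest falls were those of separase and of 2 checkpoint genes. Espl1 was at 3.51, 3.88 and 4.89 eRPKM in the 3 Myc-off IDs (ID150584, ID151964 and ID153344, in this order throughout), against 31.8 to 38.2 in Myc IDs. It fell by 2.95 ± 0.17 (SE, adjusted p = 7.9e-15), with the Myc-off IDs close to each other. Bub1b was at 8.78, 8.49 and 12.4 against 38.2 to 59.5, and Ttk at 5.20, 8.02 and 7.05 against 29.1 to 35.3. They fell by 2.24 ± 0.22 and 2.20 ± 0.19, and no Myc-off ID came near a Myc ID. Bub1 fell by 1.74 and Mad2l1 by 1.13, so within the checkpoint the share left ran from 20.5% to 45.0%.

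The passenger complex followed closely. Aurkb, Incenp and Cdca8 fell by 2.02, 1.99 and 1.98, and Birc5 by 1.35. Aurkb was at 7.92, 12.4 and 13.7 eRPKM, against 44.2 to 50.3 in Myc IDs. Kinetochore genes were split. Ndc80, Cenpe, Cenpf and Nuf2 fell by 1.97, 1.89, 1.79 and 1.63. Cenpa was at 24.3, 20.6 and 25.0 and fell by 1.02, and Spc25 was at 15.9, 15.9 and 20.6 and fell by 0.62 ± 0.17 (adjusted p = 0.0031). The 2 kinetochore genes with the highest control level were thus those with the smallest falls.

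Among B cyclins and kinases, Plk1 fell most, by 1.90, to 9.83, 11.7 and 10.6 eRPKM. Ccnb1 was at 20.2, 29.8 and 36.6 and fell by 1.41 ± 0.32 (adjusted p = 0.00049), with its Myc-off IDs well apart from each other. Cdk1, Aurka and Nek2 fell by 1.26, 1.33 and 1.41. Ccnb2, cyclin B2, was at 26.7, 19.7 and 29.0 against 38.2 to 54.6 and fell by 0.81, so 56.8% was left. Nek2 spread widely among control IDs, from 0.708 to 8.02.

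Motors and cytokinesis genes fell by similar amounts. Kif2c fell by 1.94, Racgap1 by 1.97 and Anln by 1.75. Kif11, Kif4, Kif20a, Kif23, Tpx2 and Prc1 fell by 1.39 to 1.65, and the share left among the 7 motors and microtubule proteins was 25.5% to 37.7%. Ect2 was at 11.1, 14.9 and 14.7 eRPKM and fell by 1.14. Of the genes that control the start of anaphase, Cdc20 was at 17.6, 25.2 and 29.0 and fell by 1.35 ± 0.37 (adjusted p = 0.0030). Pttg1 was at 7.73, 7.95 and 9.26 and fell by 0.89 ± 0.24 (adjusted p = 0.0026).

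Mki67 was the member that did not pass the test of this fall. It was at 68.4, 49.9 and 73.7 eRPKM in the Myc-off IDs and at 83.3 to 109 in Myc IDs, so the groups did not overlap. The log2 difference was -0.56 ± 0.32 (SE), with a 95% interval of -1.21 to 0.09 and an adjusted p of 0.15. The condensin genes Ncapd2, Ncaph, Smc2 and Smc4 fell by 1.69, 1.69, 1.36 and 0.78, and Top2a by 1.04. Over the alternative settings Mki67 ran from -0.80 to -0.32, and its adjusted p passed the threshold in 5 of them, with libraries as samples (0.0044) among these. Within ID150584, the level of Mki67 was 84.2, 62.7 and 58.1 in libraries of 3.25, 7.32 and 10.4 M reads. In the same order, their Gapdh levels were 99.2, 40.9 and 42.5 eRPKM and their hepatocyte marker sums 2415, 1582 and 948. Depth and tumour cannot be told apart within this ID, and the cause was not tested. The other IDs differed little in depth: ID151964 had 51.1 and 48.6 at 7.16 and 7.02 M reads. ID153344 had 77.3, 75.7 and 68.1 at 7.12, 6.54 and 7.43 M. In the library of 3.25 M reads the mean log2 level of the 40 members was 3.40, the lowest of the Myc-off libraries. With a correction for a ceiling of reads per kilobase, which was inferred from the values of all genes, the difference was -0.80 (adjusted p = 0.035). Erythroid markers moved with it among the Myc-off IDs: their sums were 162 to 272 eRPKM in ID150584, 75.5 to 87.2 in ID151964 and 257 to 405 in ID153344. Sums of neutrophil and myeloid markers were also lowest in ID151964, at 240 to 298, 96.1 to 159 and 188 to 472. Cholangiocyte sums did not follow this order, at 43.4 to 64.0, 201 to 215 and 103 to 252. The part of these cells in the Myc-off level was not tested.

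Ube2c was the exception among IDs. It was at 28.2 eRPKM in ID150584, 96.3 in ID151964 and 38.3 in ID153344, against 66.9 to 75.4 in Myc IDs. The tumours of ID151964 had 78.0 and 114.6, above all Myc IDs, while the other 2 IDs lay below all of them. With all IDs Ube2c fell by 0.59 ± 0.22 (adjusted p = 0.025). Without ID151964 it fell by 1.10 (adjusted p = 1.3e-05), and without ID150584 or ID153344 the log2 difference was -0.23 or -0.44 and did not pass. Genes next to Ube2c were high in the same libraries, a check made after its values were seen. The 10 tested genes on each side, in RefSeq order on chromosome 2, had a median log2 ratio of 1.98 between ID151964 and the other Myc-off IDs, and 17 of these 20 were above 1. For the 40 tested genes nearest to it, 20 on each side, the median was 1.89 and 32 were above 1. Over all placed genes 3.81% were above 1. Of these 40 genes, 38 were higher in both tumours of ID151964 than in the other Myc-off IDs. In both tumours 36 were higher than in every Myc ID. Over all genes tested, 19.6% had every Myc-off ID above every Myc ID. Some of the 36, such as Hnf4a and Rims4, were above every Myc ID in the other Myc-off IDs too. The count of 36 is therefore not particular to ID151964. Dnttip1 was 4.02-fold, Snx21 3.76-fold and Acot8 3.65-fold higher than in the other Myc-off IDs. For no other member and tumour ID did the median of its 20 neighbours exceed 0.34. Tnnc2, whose exons overlap those of Ube2c, is too low to have passed the filter. DNA copy number was not measured.

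**Figure D3:**
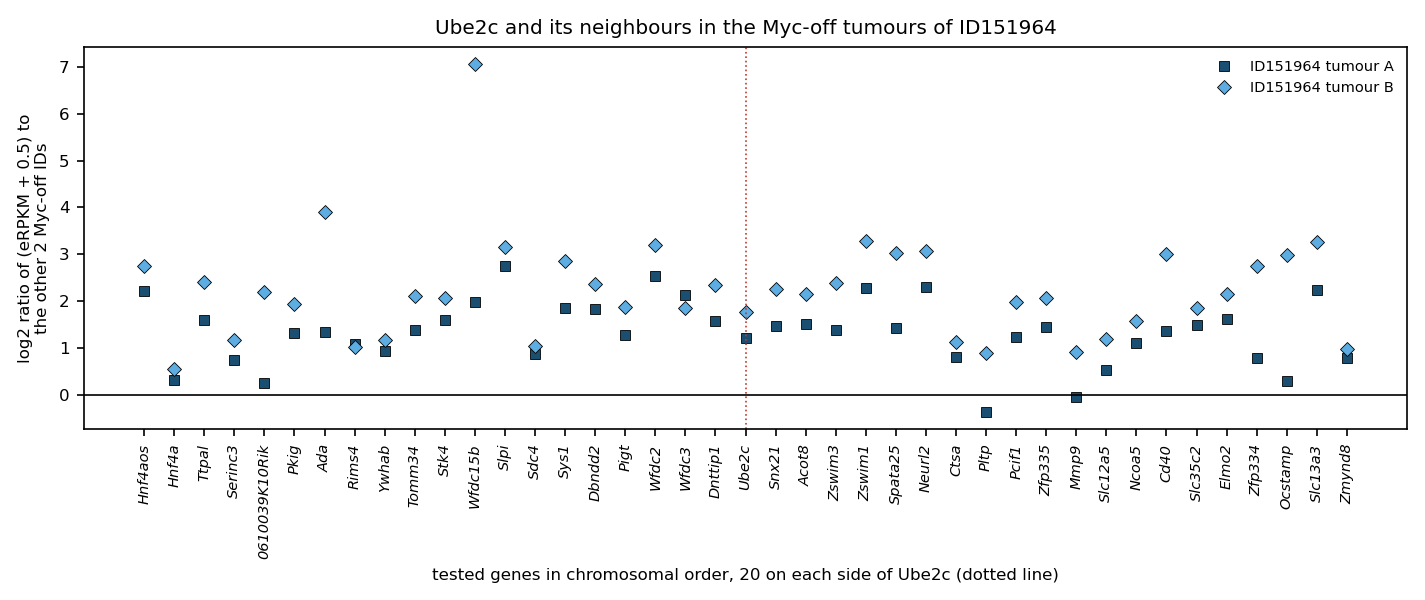
Log2 ratio of (eRPKM + 0.5) in each tumour of Myc-off ID151964 to the mean of the other 2 Myc-off IDs, for Ube2c (dotted line) and the 20 tested genes on each side in chromosomal order. Nearly all points lie above 0 in both tumours, with a median of 1.89 over the 40 neighbours.

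Some lists of cell type markers also moved with the switch-off, where 22.8% of all genes tested were called higher and 28% lower. Of 12 hepatocyte markers 10 were called higher, and their summed level was 948 to 2415 eRPKM in Myc-off libraries. All 7 tested cholangiocyte markers were called higher, with sums of 43.4 to 252 against 12.9 to 55.3 in Myc libraries. Of 11 erythroid markers 1 was called higher, and none of 9 neutrophil and myeloid markers was called (limma; none at an unadjusted p under 0.05). Of 12 endothelial and 10 tested lymphocyte markers, 3 each were called higher, close to the share of all genes, and none lower. None of the 10 Kupffer cell and macrophage markers or the 10 markers of stellate cells and fibroblasts was called (limma; none at an unadjusted p under 0.05). The part of these cells in the members' fall was not tested.

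**Figure D4:**
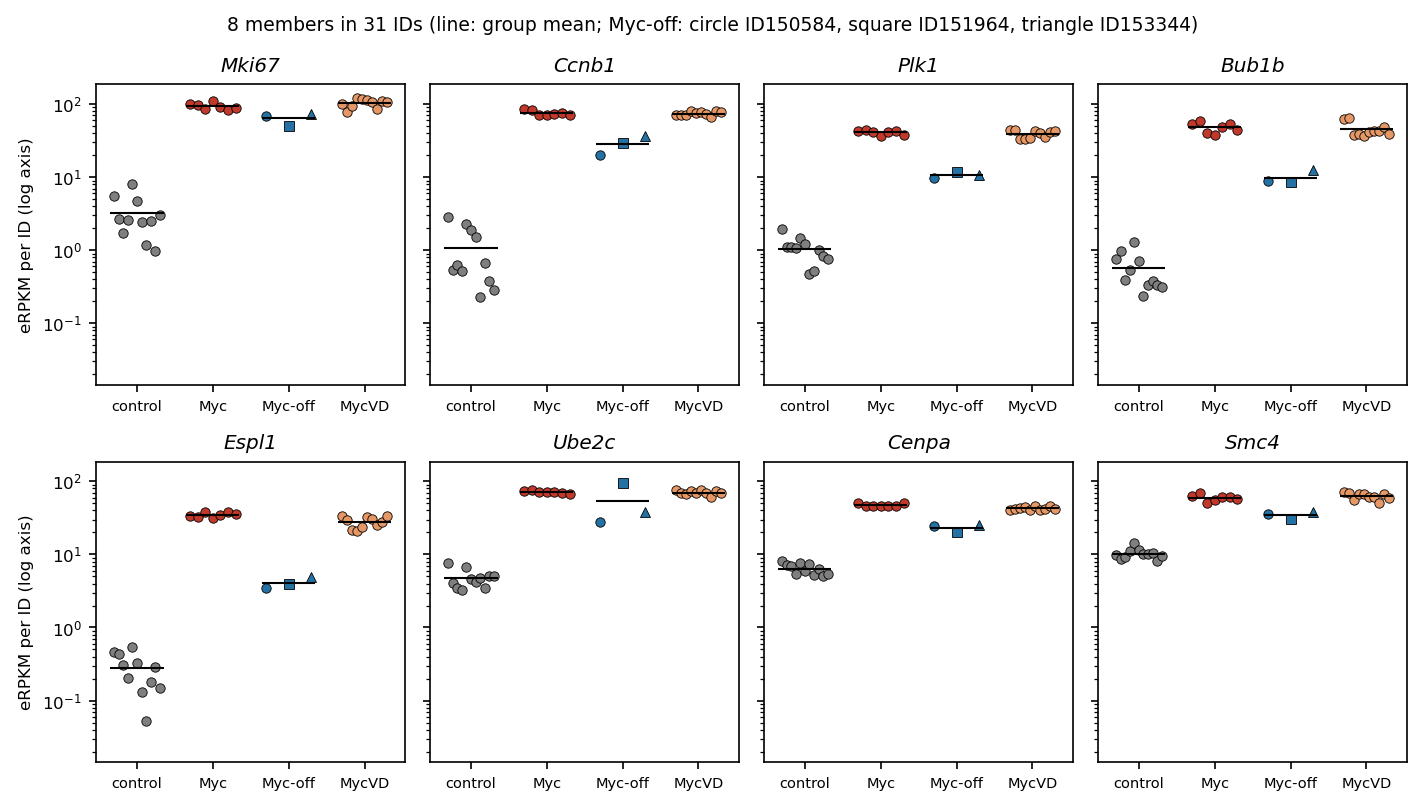
Mean eRPKM per ID (log axis) of 8 members in the 4 groups, with the group mean as a line. Myc and MycVD IDs overlap in every panel, and the Myc-off IDs lie between control and Myc IDs except for Ube2c in ID151964 (square).

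What was left after 16 h was still far above healthy liver. All 40 members were called higher in Myc-off tumours than in control livers, where 37.3% of all genes were, and no ID means overlapped, as for 26.4% of all genes. The median log2 difference was 2.92, from 1.51 for Pttg1 to 4.38 for Ccnb1. This comparison shares its controls with the first and its Myc-off tumours with the second. Plk1 is an example, with 0.473 to 1.96 eRPKM in control IDs, 9.83 to 11.7 in Myc-off IDs and 37.2 to 44.1 in Myc IDs. Over all genes 5439 were called higher and 3049 lower, and 4212 and 4345 with median-ratio scaling, where all 40 members stayed higher.

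The third comparison addressed the substitution in the transgene. None of the 40 members was called in MycVD against Myc tumours, where 15.8% of all genes were called in either direction (limma). At an unadjusted p under 0.05 there were 3 members, all lower, and other settings of limma called 0 to 3 members lower and none higher. The log2 differences ran from -0.33 for Cenpf to 0.17 for Spc25, with 27 members below 0 and 13 above. The 95% intervals of all 40 lay between -0.62 and 0.59, and those of 31 members lay within 0.5 of 0.

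The named members show the overlap. Mki67 was at 78.5, 106 and 121 eRPKM in MycVD IDs (lowest, median and highest) and 83.3, 92.8 and 109 in Myc IDs, a log2 difference of 0.13 ± 0.23 (SE). Ccnb1 was at 65.7, 74.1 and 81.0 against 70.0, 73.2 and 85.3, and Top2a at 72.6, 94.1 and 102 against 73.4, 82.6 and 98.7. The ranges of the groups almost coincided. The log2 differences of Cdk1, Plk1 and Bub1b were -0.0020, -0.08 and -0.10. The 3 highest were Spc25 (0.17), Top2a (0.14) and Mki67 (0.13).

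The 3 lowest were Cenpf, Espl1 and Kif23. Cenpf was at 28.6, 35.4 and 40.6 eRPKM in MycVD IDs and 39.6, 43.6 and 48.8 in Myc IDs (-0.33 ± 0.14, adjusted p = 0.10). Espl1 was at 21.1, 28.7 and 33.8 against 31.8, 34.3 and 38.2 (-0.32 ± 0.12, adjusted p = 0.064). Without MycVD ID133074 or ID134668 Espl1 passed the test (adjusted p = 0.0456 and 0.0486). Kif23 was at 12.8, 17.8 and 22.7 against 19.4, 21.1 and 22.5 (-0.26, adjusted p = 0.13). The ranges of the groups overlapped, but for each of these 3 genes the MycVD median lay below the lowest Myc ID. In this comparison 6.14% of all genes tested were called higher and 9.69% lower. Of the marker lists, 8 of 12 hepatocyte markers were called higher in MycVD tumours. None of 11 erythroid markers was called (none at an unadjusted p under 0.05). Of 10 Kupffer cell and macrophage markers 3 were called lower, the lowest being Marco (-2.05), and of 12 endothelial markers 2 were, the lowest being Stab2 (-1.06). The neutrophil and myeloid, lymphocyte and cholangiocyte lists had 1 marker each called higher. None of 10 markers of stellate cells and fibroblasts was called (3 at an unadjusted p under 0.05). The part of these cells in the members' values was not tested.

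**Figure D5:**
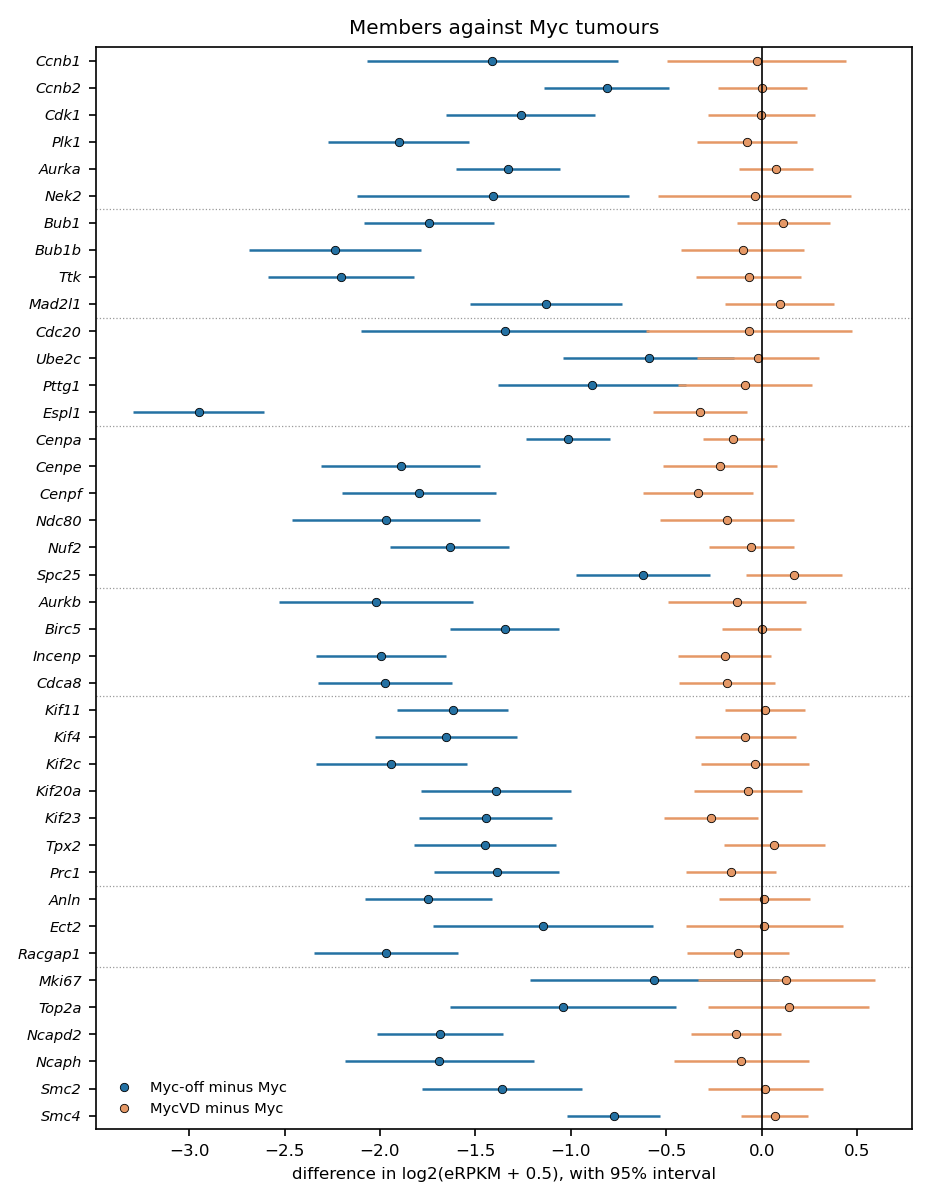
Difference in log2(eRPKM + 0.5) from Myc tumours, with its 95% interval, for Myc-off (blue) and MycVD tumours (orange), members ordered by role. All MycVD intervals lie between -0.62 and 0.59, while the Myc-off values run from -2.95 for Espl1 to -0.56 for Mki67.

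Against control livers, all 40 members were called higher in MycVD tumours, beside 49.2% of all genes, with no overlap of ID means, as for 25.8% of all genes. The median log2 difference was 4.44, from 2.31 for Pttg1 to 5.77 for Ccnb1. Values of both tumour types stand side by side because they share the control livers. For Bub1 the differences were 5.39 in Myc and 5.50 in MycVD tumours, and for Espl1 5.52 and 5.20. Over all genes 7161 were called higher and 4528 lower, and 5918 and 5679 with median-ratio scaling.

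Other mitosis genes, 132 in 7 lists, moved less evenly. In Myc tumours 116 of them were called higher and 2 lower, beside 50.4% and 29.7% of all genes. After switch-off 103 fell and 5 rose, beside 28% and 22.8% of all genes. Of the regulators of mitotic transcription, 12 of 15 rose in Myc tumours and 10 of 15 fell after switch-off. Foxm1, a forkhead factor that drives these genes, rose by 4.72 and then fell by 1.96, and Mybl2, which encodes B-Myb, rose by 5.24 and fell by 1.57. Ccna2, cyclin A2, rose by 4.94 and fell by 1.15. In MycVD against Myc tumours their log2 differences were -0.11, -0.29 and 0.01, and none was called.

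Of the spindle and centrosome list, 26 of 27 rose in Myc tumours and 26 fell after switch-off, and of the other kinetochore genes 27 of 29 rose and 28 fell. Of the checkpoint and APC/C list 13 of 21 fell, with Trip13, an ATPase that takes checkpoint complexes apart, falling by 2.85. Of the 9 other cytokinesis genes, 2 fell and 2 rose after switch-off, with a median log2 difference of -0.01. Cenpj, a protein of centriole growth, went the other way after switch-off, where it rose by 1.04. In Myc tumours its log2 difference was 0.24, above 0 but under the median of all genes. It was also the highest of the 132 in MycVD against Myc tumours (0.47, adjusted p = 0.0021). There 3 of 132 were called higher and 9 lower, beside 6.14% and 9.69% of all genes, and the lowest was E2f7, a repressor of E2F targets, at -1.18 (adjusted p = 0.00015).

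With the groups pooled, the members varied together around their group means. Over the 31 IDs, with group means subtracted, the 780 pairs of members had a median Pearson correlation of 0.56, from -0.22 (Nek2 with Ect2) to 0.91 (Bub1b with Ndc80). These points share the depth and scaling of each library, so the values are a description. Control livers had the widest spread (median SD 0.38, against 0.11 in Myc and 0.17 in MycVD tumours) and so weigh most in them. No group was taken alone. Top2a and Tpx2 were most like the mean of the other 39 (0.92 each), and Nek2 (0.35) and Ube2c (0.40) least. Outside the lists, the 5 genes most like the mean of the members, of 14313 searched, were Topbp1 (0.86), Mcm3 (0.84), Parpbp (0.83), Atad2 (0.83) and Arhgap11a (0.83).

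The tumour groups were tight. The median SD of the log2 level among IDs was 0.38 in control livers, 0.11 in Myc, 0.25 in Myc-off and 0.17 in MycVD tumours. Among tumours of the same ID it was 0.15 in 5 Myc IDs and 0.20 in 3 Myc-off IDs. The values among IDs rest on ID means, which average the tumours of an ID, and those within IDs on single tumours. They are therefore not like for like and do not show whether IDs spread more widely than tumours of the same ID. The mean of the 40 log2 levels ran from 5.10 to 5.44 over the 16 Myc libraries, 3.40 to 4.10 over the 8 Myc-off libraries and 5.00 to 5.30 over the 11 MycVD libraries. No Myc-off library reached a Myc or MycVD library. Within each Myc ID that held both kinds, libraries with Gapdh under 30 eRPKM had higher means than the others. In ID128992, for example, the means were 5.37 in the tumour with low Gapdh and 5.10 in the other. The cause was not tested.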

How the data were processed

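RNA of 46 libraries of mouse liver and liver tumour had been depleted of ribosomal RNA and sequenced without strand, per the labels' protocols. The deposited table holds exonic RPKM values made by the authors. Reads were processed with TopHat2 2.0.8 and mm9, per the submitters' processing notes. The sources used here name no read counter and no annotation. The values were whole reads within a tolerance of 0.001 for 19465 genes, which gave depths and exon lengths. Abundant genes seemed to meet a ceiling of reads per kilobase, a point inferred from the values alone.

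Tumours sharing an ID were averaged. The 14566 genes that reached 1 eRPKM in 3 or more of the 31 IDs were tested two-sided with limma 3.58.1 in R 4.3.3 (trend option). The model of log2(eRPKM + 0.5) held the 4 groups and no covariate, with 27 residual degrees of freedom. This scale understates the change of low genes. P-values were adjusted over all genes by the Benjamini-Hochberg method at 0.05. The procedure was tested on simulated data.

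The members, gene lists, markers and tests were chosen with earlier results of these data known. All members may be named; in MycVD against Myc tumours, the called members, the 3 highest, the 3 lowest and 6 others (Mki67, Ccnb1, Cdk1, Plk1, Bub1b and Top2a) are. Pathway lists are given by counts with their extremes. Alternatives covered the replicate unit, pseudocounts of 0.1 and 1, filters, scalings, depth, the read ceiling, weights, the groups in the fit, ID ranges and leaving out each ID. A pair was added after seeing the data: leaving out libraries with Gapdh under 30 eRPKM, and averaging log2 values. The neighbours of Ube2c were also examined after its values were seen. GENCODE M21 and RefSeq tables gave overlaps, gene order and promoters only, since their build differs from that of the values.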

Additional observations from a re-analysis of the deposited data

How the results depend on the processing

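Under all settings run, 40 members were called higher in Myc, MycVD and Myc-off tumours against control livers. Of the 39 members called lower in Myc-off against Myc tumours, 4 were lost with depth as a covariate. Other settings lost no member except Ube2c, and 5 settings added Mki67. The number called lower in MycVD against Myc tumours was 0, and became 3 with libraries as samples, with quantile normalisation or with only these 2 groups in the fit, 2 with the ID as a random effect or a pseudocount of 1, and 1 with array weights or the read-ceiling correction; leaving out each ID gave 0 to 1. Signs of small MycVD differences turned. Ccnb1 became 0.015 with median-ratio scaling, 0.25 with depth as a covariate, 0.0019 with array weights and 0.00972 without libraries of low Gapdh (leaving out IDs, -0.044 to 0.0030). Cdk1 became 0.022 with the first tumour of each ID, 0.039 with median-ratio scaling, 0.090 with depth, 0.034 without low Gapdh and 0.0024 with averaged log2 values (leaving out IDs, -0.047 to 0.049). Depth also turned Plk1 (0.076) and Bub1b (0.10), and quantile normalisation Mki67 (-0.054) and Top2a (-0.017). None of these passed the threshold, and the cause was not tested.

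In Myc-off against Myc tumours, Cdc20 (-0.66), Ube2c (-0.57), Pttg1 (-0.54) and Top2a (-0.72) did not pass with depth as a covariate (adjusted p = 0.16, 0.084, 0.10 and 0.079). Ube2c was also lost with only these 2 groups in the fit (adjusted p = 0.078). Low control counts limit the size of the rises, and 3 Myc-off IDs limit that comparison. No paired analysis was possible because the labels give no replicate numbers shared across groups.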
